A study of Rattus norvegicus with 38 samples.

Results

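A set of 10 genes of lipoprotein particles were followed through the livers of Sprague-Dawley rats, an outbred laboratory strain. They are the apolipoprotein genes Apoa1, Apoa2, Apoa4, Apoa5, Apob, Apoc2, Apoc3 and Apoe, together with Lcat and Mttp. They were taken by symbol from a fixed list, and all 10 were found among the 31038 genes of the count table and passed the filter on low counts, as 14786 genes did. RNA of 38 livers collected on day 28 had been sequenced in 8 groups, which cross lipopolysaccharide (LPS, a cell wall component of gram-negative bacteria, injected into the peritoneum) with gavage of extracts coded EF, PF and RD. The control group (n = 5) had neither LPS nor extract. EF (n = 5) had the extract EF at 2.5 g/kg, EF_PF (n = 5) had EF with PF at 2.5 g/kg each, and EF_RD (n = 4) had EF at 2.5 g/kg with RD at 200 mg/kg. The other 4 groups had LPS as well: LPS had no gavage (n = 5), LPS_EF had EF (n = 5), LPS_EF_PF had EF and PF (n = 4), and LPS_EF_RD had EF and RD (n = 5), at the same doses. The labels do not spell out EF, PF and RD, and give neither the dose and timing of LPS nor a vehicle for the control rats. Neither PF nor RD was given without EF, and all libraries carry the same batch label.

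Lipoproteins carry lipids through blood as droplets wrapped in apolipoproteins. The liver loads triglyceride onto the large scaffold protein encoded by Apob, with the help of the transfer protein encoded by Mttp, and secretes the result as very low density lipoprotein. Small exchangeable apolipoproteins then set the fate of the particle: the product of Apoc2 activates lipoprotein lipase, that of Apoc3 inhibits it, that of Apoa5 aids it, and that of Apoe is the ligand by which the liver takes remnants back up. Apoa1 and Apoa2 encode the main proteins of high density lipoprotein (HDL), on which the enzyme encoded by Lcat esterifies cholesterol. Apoa4 encodes a protein of chylomicrons and HDL that the intestine makes, and in rodents the liver too.

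The libraries held between 19716622 and 35835012 counted read pairs. The labels call the cells hepatocytes and name no step that would isolate them, and markers of other liver cells were present. The summed level of 10 hepatocyte markers ran from 129470 to 216013 CPM (a count scaled to a common library size, here with the TMM method). LPS lowered 8 of these 10 markers against control, 3 in LPS_EF against EF, 9 in LPS_EF_PF against EF_PF and 1 in LPS_EF_RD against EF_RD, and it raised 11, 8, 11 and 11 of 11 tested markers of neutrophils and monocytes. The 13 macrophage markers summed to between 268 and 849 CPM without LPS and to between 661 and 1452 CPM with it, and 6, 7, 8 and 6 of them were called higher. The part of these shifts in the results on apolipoproteins was not tested, and in bulk tissue fewer hepatocytes and less RNA per hepatocyte cannot be told apart. The intestine also makes Apoa4, Apob and Apoa1, and 2 defining genes of its epithelium, Alpi and Mep1b, were at 0 in all 38 libraries, with Fabp2 at no more than 3.23 CPM, Vil1 at no more than 1.26 CPM, Anpep at no more than 208 CPM and Cdh17 at no more than 257 CPM; 1 of the 4 that were tested was called higher after LPS in each comparison. The 3 libraries EF_RD 1, LPS 3 and control 5 stood apart by other tissues. Muscle markers reached 4053 CPM in EF_RD 1 and 400 CPM in LPS 3, against at most 2.36 CPM elsewhere, and pancreas markers reached 3032 CPM in control 5, 1765 CPM in LPS 3 and 112 CPM in EF_RD 1.

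Of the 10 genes, 6 lie in a pair of gene clusters. On the rn6 positions of the count table, Apoa1 (chr8:50525091-50526875, + strand), Apoc3 (chr8:50529318-50531498, - strand), Apoa4 (chr8:50536983-50539371, + strand) and Apoa5 (chr8:50559079-50561720, + strand) lie within 36.6 kb. Apoc2 (chr1:80589023-80593991) and Apoe (chr1:80612894-80616820), both on the - strand, lie within 27.8 kb. The others stand alone, Apoa2 at chr13:89596872-89598805, Apob at chr6:33176826-33216381, Lcat at chr19:37913333-37916799 and Mttp at chr2:243366181-243407608. Apoc2 and Apoa4 showed the largest falls after LPS among the 10, so the 250 bases before their starts are shown, read 5′ to 3′ on the strand of the gene. They come from RefSeq on the build GRCr8, whose positions are not those of rn6. RefSeq promoter entries were matched for 5 of the 10 genes, Apoa4, Apoa5, Apoc2, Apoe and Lcat. Apoc2 lies at chr1:88462366-88462615 on the - strand, and Apoa4 at chr8:55435529-55435778 on the + strand.
Apoc2: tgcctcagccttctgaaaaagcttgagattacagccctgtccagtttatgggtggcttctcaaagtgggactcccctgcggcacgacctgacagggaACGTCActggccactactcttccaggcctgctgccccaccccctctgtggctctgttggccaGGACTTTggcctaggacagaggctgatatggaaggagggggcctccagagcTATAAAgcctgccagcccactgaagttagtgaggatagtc
Apoa4: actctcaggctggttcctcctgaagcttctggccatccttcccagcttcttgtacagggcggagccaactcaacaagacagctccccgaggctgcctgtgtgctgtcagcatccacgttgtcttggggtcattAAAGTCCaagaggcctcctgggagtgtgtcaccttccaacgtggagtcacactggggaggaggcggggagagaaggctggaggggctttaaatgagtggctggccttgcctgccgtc

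Capitals mark the letters of 3 motifs searched on both strands, none of which overlapped another. The letters AAAGTCC, the core of the sequence bound by the hepatocyte factor HNF4A, lay 91 to 85 bases before the start of Apoc2, read as GGACTTT on the strand shown, and 117 to 111 bases before that of Apoa4. The letters TATAAA, known as the TATA box, lay 40 to 35 bases before the start of Apoc2. TGACGT, part of the cAMP response element, lay 153 to 148 bases before it, read as ACGTCA. Among 33469 promoter windows of this length, 3.99% held the first, 12.9% the second and 6.95% the third. The motifs were picked after the sequences had been looked at, and a match is a description of letters, not of binding.

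Per length, the 10 genes ranged from rank 6 to rank 1003 of all genes by mean level. Mean TPM, which scales counts by gene length and library size, over the 38 libraries was 15695 for Apoe, then 4173 for Apoc3, 3085 for Apoa1, 1725 for Apoa2, 1304 for Apoa4, 1244 for Apoc2, 1115 for Apoa5, 687 for Apob, 529 for Lcat and 97.3 for Mttp. The 10 genes together held a median of 2.93% of all TPM, with a range of 2.34% to 3.6% over the libraries. Lcat and Mttp, the 2 that encode no apolipoprotein, were also the steadiest: the median coefficient of variation of CPM within a group was 7.43% for Lcat and 8.84% for Mttp, against 23.5% for Apoa4, the most variable. The highest group mean was 2.45 times the lowest for Apoa4, 2.19 times for Apoa2, 1.93 times for Apoc2 and 1.56 times for Apoc3, and between 1.24 and 1.4 times for the other 6. Ordered by their means, neighbouring groups overlapped in every case for all 10 genes. For Apoc2, Apoc3, Apoa4, Apoe and Lcat the 4 groups without LPS nevertheless held the 4 highest means and the 4 groups with LPS the 4 lowest.

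**Figure D1:**
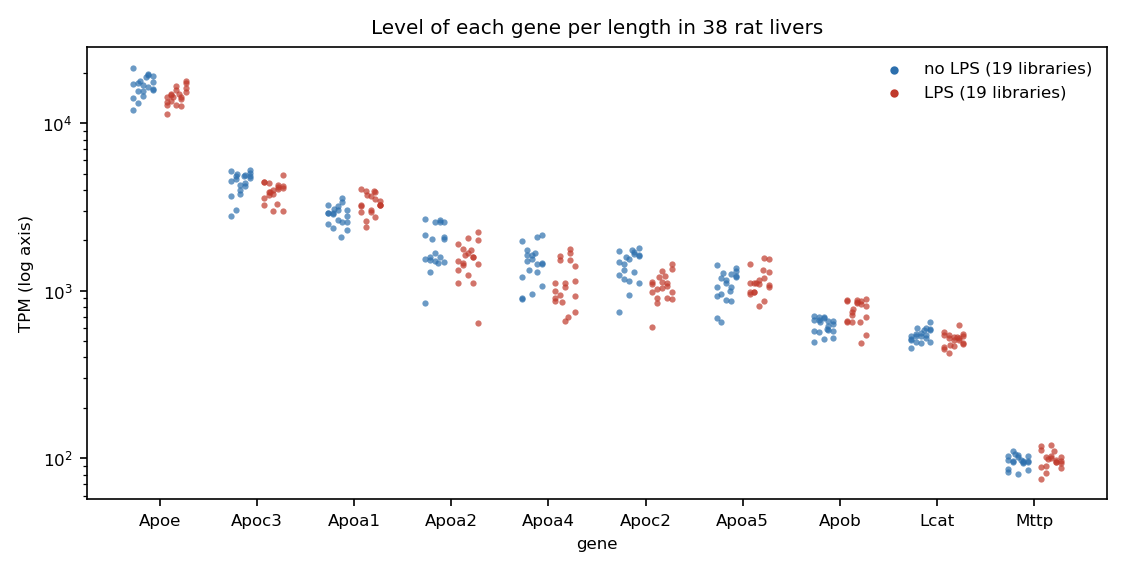
Level of each of the 10 genes in TPM on a log axis, with 1 point per library, the 19 livers without LPS in blue and the 19 with LPS in red. Apoe, with a mean of 15695 TPM, stood highest and Mttp, with a mean of 97.3 TPM, lowest, and for each gene the points with and without LPS overlapped.

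LPS lowered some of the 10 genes, and in the fit of all 38 libraries with TMM scaling it was called to raise none, while Apob and Apoa1 were called higher under other settings given with their values. Across 4 comparisons of LPS with its matched group, 9 results on 6 genes passed an adjusted p of 0.05 in edgeR's quasi-likelihood test, and all 9 were falls. Apoc2 fell in 3 of the 4, and Apoa4 in 2. Against control, LPS lowered 3 of the 10, Apoc2, Apoe and Apoa4, where 36.8% of all tested genes were called, 18.6% higher and 18.1% lower. In LPS_EF_PF against EF_PF it lowered 5, Apoa4, Apoc3, Apoc2, Apoa2 and Lcat, where 36.5% of all genes were called, 19.2% higher and 17.3% lower. In LPS_EF_RD against EF_RD it lowered Apoc2 alone, where 23.5% of genes were called, 12.8% higher and 10.7% lower. In LPS_EF against EF none of the 10 was called by edgeR with no term for replicate number, by DESeq2 or by limma, where 29.1% of genes were called, 14.6% higher and 14.5% lower. None of the 10 had an unadjusted p under 0.05 there, beside 5910 of all 14786 genes. The median log2 fold change of the 10 was -0.29 against control, -0.09 with EF, -0.34 with EF and PF and -0.17 with EF and RD, beside medians of 0.00, -0.02, -0.02 and -0.02 over all tested genes. The shares called in either direction were near or below those of all genes in 3 of the 4 comparisons. With EF and PF the share was above, at 5 of the 10 beside 36.5%. Counted as falls only, 3 of the 10 stood beside 18.1% of all genes against control, and 5 of the 10 beside 17.3% with EF and PF. With EF and RD it was 1 of the 10 beside 10.7%, and with EF none beside 14.5%. The set as a whole was not tested, so these counts do not set the 10 genes apart. The comparisons with the most falls, against control and with EF and PF, were also those in which 8 and 9 of the 10 hepatocyte markers fell, against 3 with EF and 1 with EF and RD, and the part of that in these counts was not tested.

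**Figure D2:**
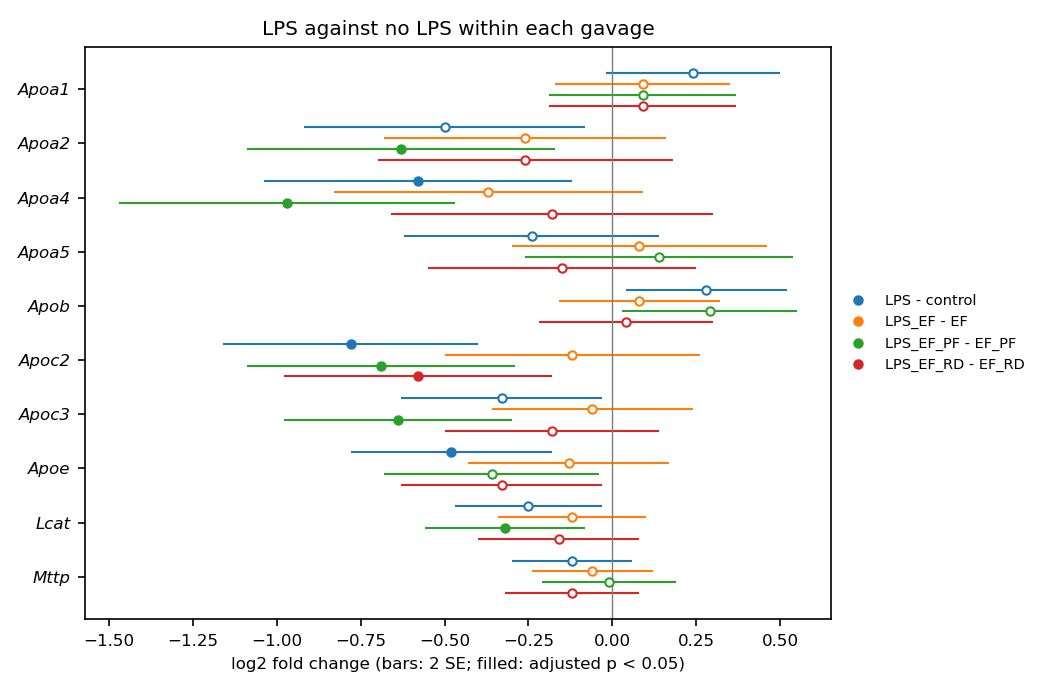
Log2 fold change of LPS against the matched group without LPS for each gene and each gavage, with bars of 2 standard errors and filled points for an adjusted p under 0.05. All 9 filled points lie below 0, 3 of them for Apoc2.

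Among the genes that act on lipoprotein lipase, the activator Apoc2 fell most often. In control it stood at 497, 389, 252, 441 and 322 CPM, and in LPS at 167, 216, 250, 218 and 257 CPM. Only control 5 reached down into the range of the LPS libraries. The log2 fold change was -0.78 ± 0.19 (standard error, adjusted p = 0.00178), from 380 ± 96.6 CPM (SD, n = 5) to 222 ± 35.8 CPM (n = 5). With EF and PF it was at 349, 357, 444, 481 and 507 CPM without LPS and at 243, 303, 298 and 215 CPM with it, and the groups did not overlap (-0.69 ± 0.20, adjusted p = 0.00783). With EF and RD it was at 390, 429, 469 and 420 CPM without LPS and at 287, 194, 287, 303 and 356 CPM with it, again with no overlap (-0.58 ± 0.20, adjusted p = 0.0328). That last call was lost without EF_RD 2, EF_RD 3, EF_RD 4, LPS_EF_RD 2 or LPS_EF_RD 4, with the highest adjusted p at 0.0984 without LPS_EF_RD 2. With EF alone the groups overlapped, at 202, 308, 313, 369 and 539 CPM in EF and 304, 267, 354, 285 and 380 CPM in LPS_EF (-0.12 ± 0.19, adjusted p = 0.663). Without control 5, LPS 3 and EF_RD 1, the libraries with RNA of other tissues, the fall of Apoc2 was -0.94 (adjusted p = 0.000898) against control and -0.64 (adjusted p = 0.0242) with EF and RD.

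Apoc3, the inhibitor of the same lipase, fell with EF and PF. It stood at 1643, 1683, 1604, 1546 and 1906 CPM in EF_PF and at 1049, 1261, 1047 and 937 CPM in LPS_EF_PF. All 4 libraries with LPS lay below all 5 without it (-0.64 ± 0.17, adjusted p = 0.00276). Against control the value was -0.33 ± 0.15 (adjusted p = 0.0894), with 1937, 1632, 1304, 1528 and 1898 CPM in control and 1260 to 1402 CPM in LPS, so that control 5 fell within the range of LPS. It was called with only these groups in the fit (-0.33, adjusted p = 0.0364) and without control 5 (-0.41, adjusted p = 0.0438). The value of Apoc3 was -0.06 with EF and -0.18 with EF and RD, and the value with EF turned to 0.04 when libraries were scaled to total counts. Apoa5, whose product aids the lipase, was called in no comparison, with log2 fold changes after LPS of -0.24, 0.08, 0.14 and -0.15 and adjusted p-values from 0.348 to 0.793. Its control libraries were tight, at 1175 to 1378 CPM, while EF spread from 667 to 1769 CPM.

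Apoa4, a protein of chylomicrons and HDL, showed the largest single fall. With EF and PF it went from 716, 1234, 1329, 1034 and 1145 CPM to 631, 603, 482 and 511 CPM under LPS. The groups did not overlap, and the log2 fold change was -0.97 ± 0.25 (adjusted p = 0.00281), from 1092 ± 237 CPM (SD, n = 5) to 557 ± 71.6 CPM (n = 4). Against control it went from 1595, 1148, 724, 1580 and 1784 CPM to 862, 1097, 718, 1038 and 849 CPM. Control 5 alone lay among the LPS libraries (-0.58 ± 0.23, adjusted p = 0.0469). This call was close to the threshold and was lost without control 3, control 6, control 7, LPS 1, LPS 3 or LPS 5, with the highest adjusted p at 0.133 without control 7. It was also lost with total counts (-0.44, adjusted p = 0.134), with only these groups in the fit (-0.58, adjusted p = 0.057) and in limma on TPM (-0.40, adjusted p from 0.199 to 0.285). It was -0.67 (adjusted p = 0.0229) without control 5, LPS 3 and EF_RD 1. With EF it was -0.37 (adjusted p = 0.242) and with EF and RD -0.18 (adjusted p = 0.627), where LPS_EF ran from 503 to 1342 CPM and LPS_EF_RD from 644 to 1289 CPM.

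Apoe, the ligand for remnant uptake and the most abundant of the 10, fell after LPS against control. It stood at 16415, 12591, 10352, 14078 and 12211 CPM in control and at 8325, 9537, 10206, 8189 and 10768 CPM in LPS. LPS 5 lay just above control 5, and no other libraries overlapped. The log2 fold change was -0.48 ± 0.15 (adjusted p = 0.01), from 13129 ± 2266 to 9405 ± 1136 CPM (SD, n = 5 each). With EF and PF the libraries did not overlap, at 10570 to 14656 CPM without LPS and 8531 to 10365 CPM with it, yet the test missed the threshold (-0.36 ± 0.16, adjusted p = 0.067). It was passed with only these groups in the fit (-0.34, adjusted p = 0.0327) and without EF_PF 1 (-0.41, adjusted p = 0.0477). The value was -0.33 (adjusted p = 0.113) with EF and RD, where it was called without LPS_EF_RD 8 (-0.44, adjusted p = 0.0492), and -0.13 (adjusted p = 0.552) with EF.

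Of the HDL genes, Apoa2 and Lcat were lower in part of the comparisons and Apoa1 was not. Apoa2, the second HDL protein, stood at 837, 473, 477, 826 and 650 CPM in EF_PF and at 364, 457, 476 and 388 CPM in LPS_EF_PF. The ranges overlapped slightly, and the fall of -0.63 ± 0.23 (adjusted p = 0.0275) was lost without EF_PF 1, EF_PF 5, LPS_EF_PF 1 or LPS_EF_PF 6, with the highest adjusted p at 0.0786 without EF_PF 5. It was also lost with total counts (-0.47, adjusted p = 0.0989) and in limma on TPM (-0.41, adjusted p from 0.155 to 0.221). Against control Apoa2 was at 269, 460, 498, 471 and 479 CPM and under LPS at 341, 379, 334, 297 and 187 CPM (-0.50 ± 0.21, adjusted p = 0.0609), with control 3 lying among the LPS libraries. This fall was called without control 3 (-0.64, adjusted p = 0.0201), without LPS 2 (-0.59, adjusted p = 0.0431) and by DESeq2 (-0.50, adjusted p = 0.0483). Lcat, the cholesterol-esterifying enzyme, stood at 503, 564, 634, 604 and 654 CPM in EF_PF and at 455, 470, 510 and 461 CPM in LPS_EF_PF. Only the lowest and the highest of these overlapped (-0.32 ± 0.12, adjusted p = 0.0349), and the call was lost without EF_PF 3, EF_PF 5, EF_PF 6, LPS_EF_PF 1, LPS_EF_PF 3 or LPS_EF_PF 6, with the highest adjusted p at 0.0781 without EF_PF 6. It was kept in 4 of 9 other settings, and the value was -0.15 (adjusted p = 0.23) with total counts and -0.13 (adjusted p from 0.281 to 0.351) in limma on TPM. Against control Lcat had no overlap, with 515 to 628 CPM in control and 483 to 501 CPM in LPS, and still missed the threshold (-0.25 ± 0.11, adjusted p = 0.081), which it passed with only these groups in the fit (-0.24, adjusted p = 0.0168). It was the only one of the 10 without overlap there, and the share of all genes without overlap is not given. Apoa1, the main HDL protein, was at 1275, 1370, 1245, 1222 and 1194 CPM in control and at 1577, 1016, 1581, 1659 and 1601 CPM in LPS. LPS 2 lay below all control libraries and the other 4 above them (0.24 ± 0.13, adjusted p = 0.146), and without LPS 2 Apoa1 was called higher (0.34, adjusted p = 0.0281). In the other 3 comparisons with LPS it was at 0.09 each.

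The genes for particle assembly, Apob and Mttp, were not called in the fit of all libraries with TMM scaling. Apob, the scaffold of very low density lipoprotein, stood at 3976, 5067, 5131, 4613 and 5406 CPM in control and at 6696, 5007, 5757, 5868 and 6017 CPM in LPS. Of the LPS libraries, 4 lay above all of control, and LPS 2 lay within it (0.28 ± 0.12, adjusted p = 0.0765). With EF and PF the value was close to that (0.29 ± 0.13, adjusted p = 0.0848), and with EF and with EF and RD it was 0.08 and 0.04. With EF and PF, Apob was called higher with only these groups in the fit (0.31, adjusted p = 0.0407), without LPS_EF_PF 4 (0.37, adjusted p = 0.0385) and in limma on TPM (0.46, adjusted p from 0.00713 to 0.0116). Mttp, which loads lipid onto the Apob product, was at 171 to 222 CPM in control and 166 to 194 CPM in LPS (-0.12 ± 0.09, adjusted p = 0.344). Its values with the gavages were -0.06, -0.01 and -0.12. Scaling mattered for these genes. With total counts in place of TMM the median of all genes moved from 0.00 to 0.13 against control and from -0.02 to 0.14 with EF and PF, and the genes called higher and lower against control went from 2752 and 2683 to 3672 and 1428. Under it Apoa1 (0.36, adjusted p = 0.017) and Apob (0.40, adjusted p = 0.0144) were called higher against control, as was Apob with EF and PF (0.45, adjusted p = 0.00911), while Mttp changed sign in 3 of the 4 comparisons. Limma on TPM also called Apob (0.41, adjusted p from 0.0111 to 0.0191) and Apoa1 (0.35, adjusted p from 0.0184 to 0.0414) higher against control. Relative to that shift in the median, the values of Apob and Apoa1 were about as before.

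**Figure D3:**
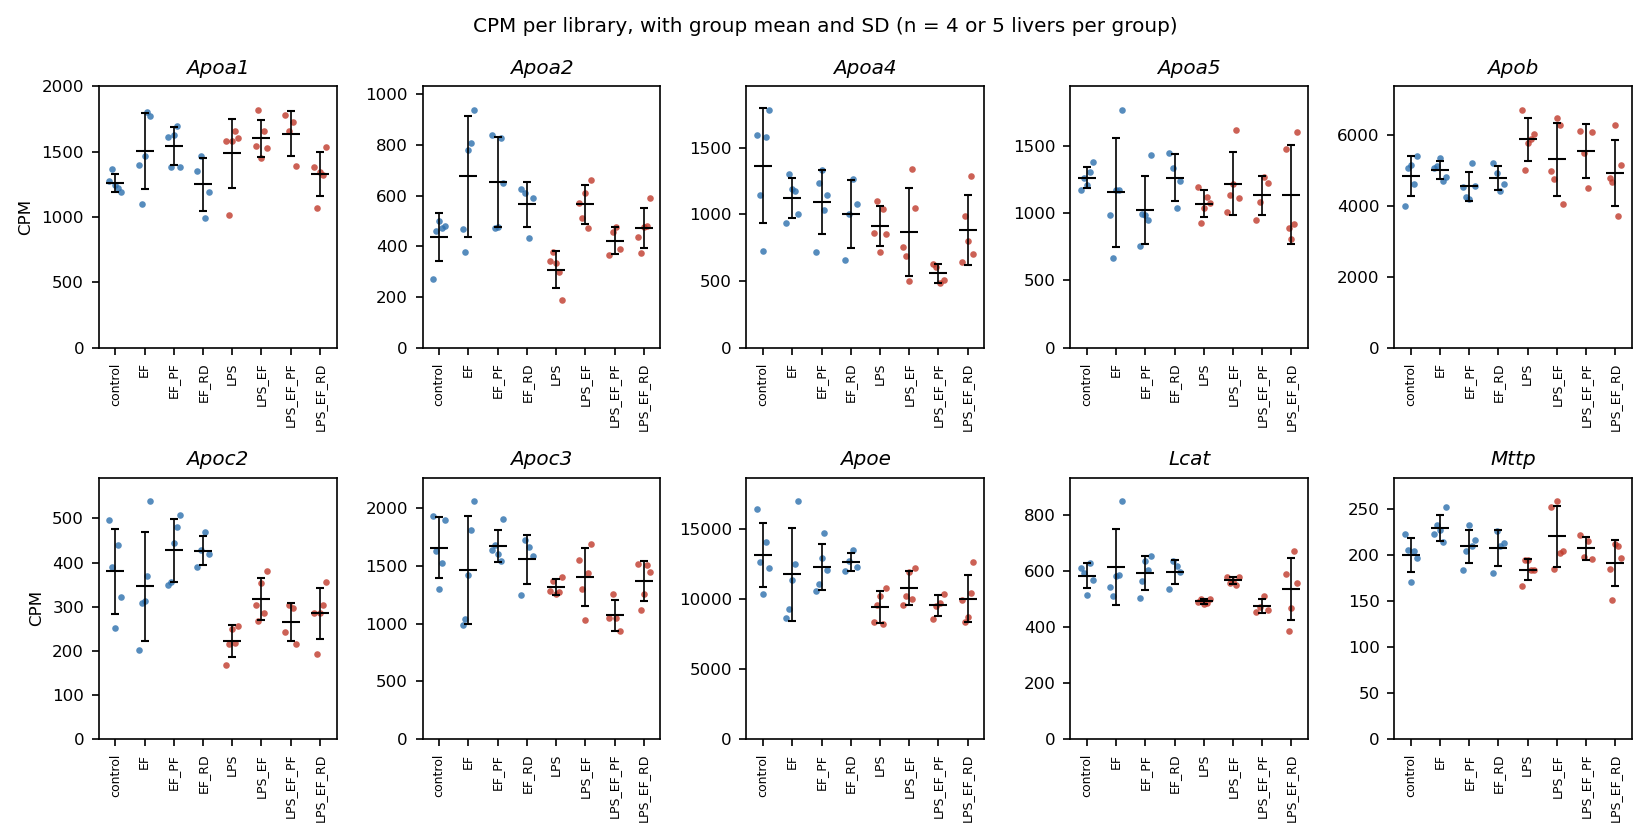
CPM of each of the 10 genes in each library of the 8 groups, without LPS in blue and with LPS in red, with black bars for the group mean and SD (n = 4 or 5). Apoc2 falls from 380 CPM in control to 222 CPM in LPS, and Apoa4 from 1092 CPM in EF_PF to 557 CPM in LPS_EF_PF, while Apob and Apoa1 do not fall.

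The size of the LPS effect was not shown to differ between gavages. In the 3 interaction tests, of LPS with EF, with EF and PF, and with EF and RD, none of the 10 genes was called by edgeR, DESeq2 or limma, where 0.108%, 0.0812% and 0.128% of all genes were called. At an unadjusted p under 0.05 there was 1 gene of the 10 for EF and none for the others, beside 1016, 719 and 1109 of all 14786 genes. That gene was Apoc2, whose fall was smaller with EF by 0.66 ± 0.27 on the log2 scale (adjusted p = 0.619). The interval of 2 standard errors, 0.12 to 1.19, spans a difference from slight to larger than the whole fall of 0.78 against control. For Apoa4 with EF and PF the difference was -0.39, with an interval of -1.06 to 0.28, and for Apoc3 -0.31, with an interval of -0.76 to 0.14.

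Ratios of 2 genes within a library do not depend on scaling between libraries, and some of them separated the groups. Within the cluster on chromosome 8, the ratio of Apoa1 to Apoa4 in TPM had a median of 1.28 in control (range 1.07 to 2.75) and 2.92 in LPS (range 1.48 to 3.51). In EF_PF it ran from 1.79 to 3.6 and in LPS_EF_PF from 4.33 to 5.7, with no overlap. The ratio of Apoa1 to Apoc3, neighbours on opposite strands with a gap of 2.44 kb, was also apart with EF and PF, at 0.532 to 0.801 without LPS and 0.96 to 1.24 with it. Against control, with EF and with EF and RD, both ratios overlapped between the libraries with and without LPS. The separation of both these ratios was thus seen with EF and PF only. The ratio of Apoa1 to Apoa2, a gene outside this cluster, was apart with EF and PF, at 1.2 to 2.13 without LPS and 2.23 to 3.06 with it. It was also apart with EF and RD, at 1.25 to 1.5 without LPS and 1.63 to 1.98 with it. Against control and with EF it overlapped. Between assembly and exchangeable proteins, the ratio of Apob to Apoc2 ran from 0.285 to 0.725 in control and from 0.818 to 1.43 in LPS. That of Apob to Apoe ran from 0.023 to 0.0471 in control and from 0.0499 to 0.0765 in LPS, again without overlap. Both were also apart with EF and PF, Apob to Apoc2 at 0.32 to 0.459 without LPS and 0.535 to 1.0 with it. Apob to Apoe was there at 0.0307 to 0.0406 and 0.0438 to 0.0681. With EF and with EF and RD the same ratios overlapped. Apob to Apoc2 ran with EF from 0.318 to 0.892 without LPS and from 0.38 to 0.783 with it. For Apoe and Apoc2, which share the cluster on chromosome 1, the median ratio was 12.4 in control and 15.7 in LPS, with overlapping ranges. With EF and PF this ratio was apart too, at 8.9 to 11.6 without LPS and 11.8 to 18.0 with it. These pairs were chosen after the values were known and are given without a test.

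**Figure D4:**
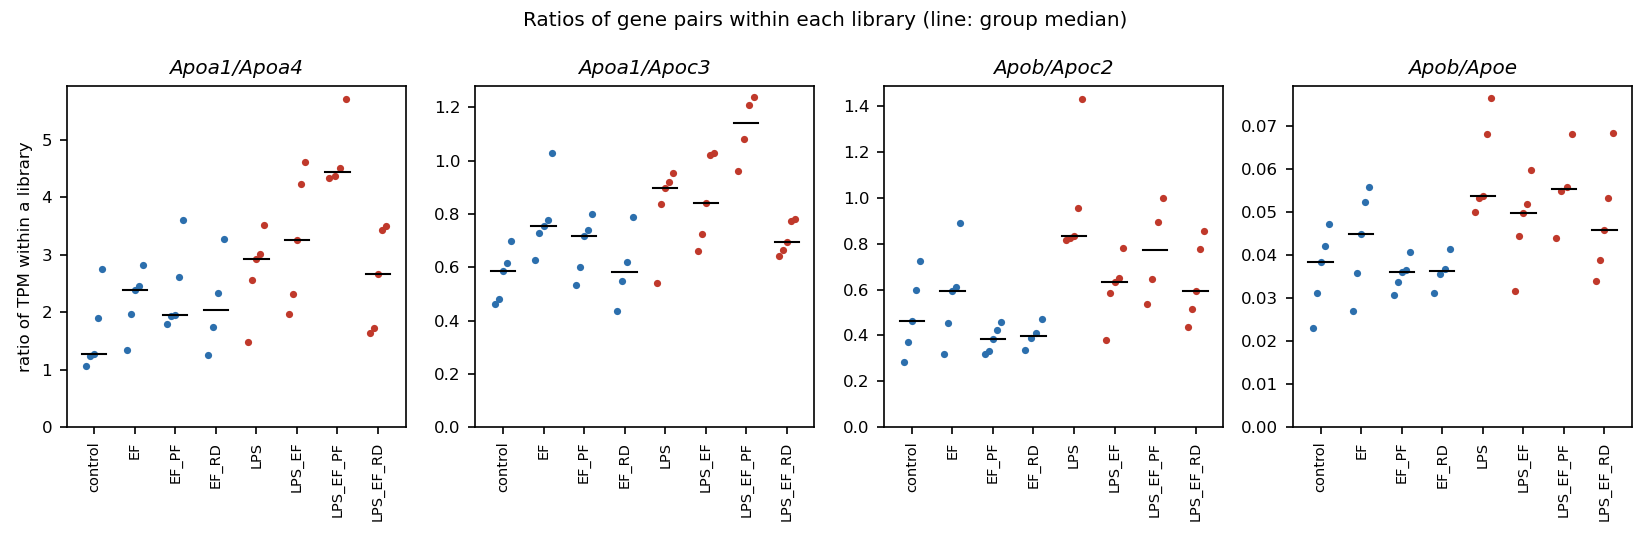
Ratio of TPM of 2 genes within each library for 4 pairs, with the group median as a line, without LPS in blue and with LPS in red. Apob to Apoe lies at 0.023 to 0.0471 in control and at 0.0499 to 0.0765 in LPS, and Apoa1 to Apoa4 reaches its highest values, 4.33 to 5.7, in LPS_EF_PF.

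The gavages alone called none of the 10 genes. Against control, 0.92% of all genes were called for EF, 0.622% for EF_PF and 1.52% for EF_RD, and none of the 10 by edgeR, DESeq2 or limma. At an unadjusted p under 0.05 were 2, 2 and 0 of the 10, beside 1679, 1855 and 2416 of all 14786 genes. Apoa2 came closest in EF and in EF_PF, and Apoa4 in EF_RD (-0.45, adjusted p = 0.376). Apoa2 stood at 468, 378, 780, 809 and 938 CPM in EF, against 269 to 498 CPM in control. Of the EF libraries, 2 lay within the control range and 3 above it (0.63 ± 0.21, adjusted p = 0.168). In EF_PF the value of Apoa2 was 0.58 (adjusted p = 0.193) and in EF_RD 0.38 (adjusted p = 0.416). These 3 comparisons share the control libraries. Apoa1 was the only one of the 10 whose groups did not overlap, at 1383 to 1692 CPM in EF_PF and 1194 to 1370 CPM in control (0.29, adjusted p = 0.34). The share of all genes whose groups did not overlap is not given. The intervals of 2 standard errors still allow effects of moderate size, for example -0.94 to 0.05 for Apoa4 in EF_RD against control.

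Under LPS the gavages also called none of the 10 in edgeR, where 0.108% of all genes were called in LPS_EF against LPS, 0.0406% in LPS_EF_PF against LPS and 0.0135% in LPS_EF_RD against LPS. The counts at an unadjusted p under 0.05 were 3, 2 and 2 of the 10, beside 1452, 891 and 1130 of all 14786 genes. Apoa2 was closest in LPS_EF and in LPS_EF_RD, and Apoa4 in LPS_EF_PF. Apoa2 stood at 571, 512, 611, 471 and 660 CPM in LPS_EF and at 341, 379, 334, 297 and 187 CPM in LPS. All 5 libraries with EF lay above all 5 without it (0.88 ± 0.21, adjusted p = 0.0888), and DESeq2 called this difference (0.87, adjusted p = 0.0137). The values of Apoa2 were 0.45 (adjusted p = 0.828) in LPS_EF_PF and 0.61 (adjusted p = 0.441) in LPS_EF_RD, against the same LPS libraries. Apoc2 at 0.52 (adjusted p = 0.309) and Lcat at 0.20 (adjusted p = 0.561) also showed no overlap in LPS_EF against LPS, and Apoa4 at -0.71 (adjusted p = 0.548) and Mttp at 0.17 (adjusted p = 0.879) in LPS_EF_PF against LPS. None of these passed the test, and how many of all genes showed no overlap is not given.

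PF or RD added to EF called none of the 10 by edgeR, DESeq2 or limma. Of all genes, 0.162% were called in EF_PF against EF, 0.724% in EF_RD against EF, 0.00676% in LPS_EF_PF against LPS_EF and 0.0% in LPS_EF_RD against LPS_EF. The numbers of the 10 at an unadjusted p under 0.05 were 0, 0, 3 and 2, beside 1815, 2165, 1205 and 412 of all 14786 genes. In LPS_EF_PF against LPS_EF, Apoa4 was at -0.64 (interval of 2 standard errors -1.14 to -0.14, adjusted p = 0.581). Lcat there ran from 455 to 510 CPM against 551 to 578 CPM without overlap (-0.25, adjusted p = 0.595).

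**Figure D5:**
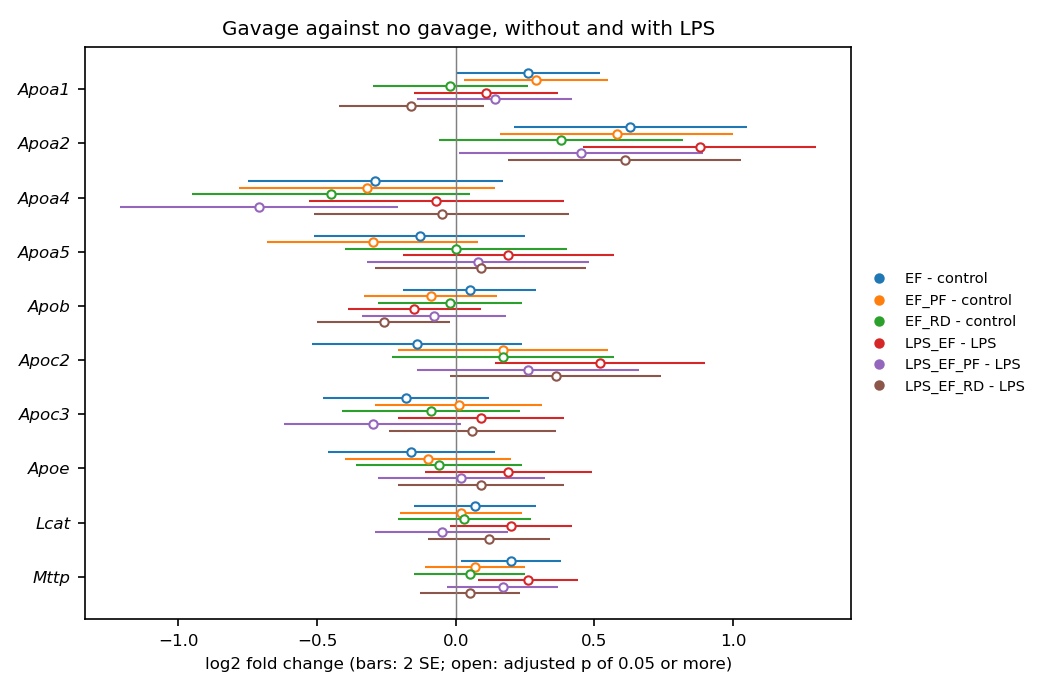
Log2 fold change of each gavage against the matched group without it, without LPS and with LPS, for each gene, with bars of 2 standard errors. All points are open, since none of the 10 genes reached an adjusted p under 0.05, and the points of Apoa2 lie between 0.38 and 0.88.

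The rest of the pathway was followed with 6 gene lists, read as counts of genes called, beside the shares of all genes given above. Of 14 other apolipoproteins, LPS against control raised 1 and lowered 6, with a median log2 fold change of -0.41. The one that rose was Clu, the secreted chaperone clusterin (0.79 ± 0.13, adjusted p = 3.99e-05), and among those that fell were Apol9a (-1.26), Apon (-0.90) and Apoc1 (-0.58), whose product also rides on triglyceride-rich particles. Clu rose and Apon fell in all 4 comparisons with LPS, with 1 higher and 5, 5 and 3 lower with EF, EF and PF, and EF and RD. Of 20 genes of assembly and secretion, 3 rose and 7 fell against control. Apobec1, which encodes the enzyme that edits Apob RNA to the short form, rose from 5.4 ± 0.565 to 9.15 ± 1.05 CPM (SD, n = 5 each; 0.76, adjusted p = 0.000645), and Sar1b, whose product drives the export of large particles from the endoplasmic reticulum, fell (-0.58, adjusted p = 0.000154), as did Dgat2 (-0.57), which makes triglyceride, and the lipid droplet gene Cidec (-0.63). Sar1b also fell with EF (-0.37) and with EF and PF (-0.59).

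Among 9 lipases and their modulators, 2 rose and 2 fell against control. Pla1a, a phospholipase gene, rose most (3.69 ± 0.38, adjusted p = 1.94e-07), and Lpl, the lipoprotein lipase that the Apoc2 product activates, rose from 11.4 ± 7.04 to 34.0 ± 22.4 CPM (1.57 ± 0.62, adjusted p = 0.0436). Lipc, the hepatic lipase, was among those that fell (-0.88). In adults Lpl is known for macrophages, muscle and fat more than for hepatocytes. Of the 13 macrophage markers 6 rose in the same comparison, which also holds LPS 3, the library with 400 CPM of muscle markers, and their part in the rise was not tested. Of 18 receptor and efflux genes, 6 rose and 1 fell, among them the cholesterol exporter Abcg1 (1.74) and the ubiquitin ligase gene Mylip (1.24). Of 10 HDL enzymes and passengers, 4 rose and 4 fell in each of the 4 comparisons with LPS, with Pla2g7 (3.75), the acute-phase genes Hpx (1.06) and Hp (1.06), and the phospholipid transfer gene Pltp (1.01) highest against control.

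Of 30 transcriptional regulators, 3 rose and 7 fell against control, 1 rose and 12 fell with EF and PF, 1 and 1 with EF, and none rose and 2 fell with EF and RD. Hnf4a, the hepatocyte factor whose binding letters occur in both promoters above, fell from 580 ± 71.7 to 360 ± 39.0 CPM against control (SD, n = 5 each; -0.69 ± 0.14, adjusted p = 0.000287), alongside Cebpb (-0.71) and Cebpa (-0.68). The sterol regulator Srebf2 rose (0.76 ± 0.12, adjusted p = 2.41e-05). With EF and RD, Creb3l3 was among those that fell (-0.65). Without LPS, Srebf2 was also higher in EF (0.74, adjusted p = 0.00104), EF_PF (0.80, adjusted p = 0.000378) and EF_RD (0.58, adjusted p = 0.0144) than in the same control libraries, while none of the 10 apolipoprotein and assembly genes was called there.

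The changes in the clusters were compared with those of the genes around them. Around the cluster on chromosome 8, 5 other genes lay within 100 kb and 3 were tested. Against control Bud13 (-0.37) and Zfp259 (-0.32) fell, while Sik3, the nearest to Apoa1, was at 0.06. Around Apoe and Apoc2, 12 other genes lay within 100 kb and 8 were tested. Against control Nectin2 (-0.65) and Cblc (-1.18, at a mean of 0.457 CPM) fell, while Apoc4, which lies 1.35 kb from Apoc2, was at -0.22 (adjusted p = 0.464), Tomm40, 0.929 kb from Apoe, at 0.02, and Clptm1 at -0.01. With EF and RD, Tomm40 (-0.35, adjusted p = 0.0493) and Zfp259 (-0.54, adjusted p = 0.000889) were lower. With EF and PF, Zfp259 was lower (-0.36, adjusted p = 0.0111) and Relb higher (0.69, adjusted p = 0.0374). With EF, Bcam was higher (0.73, adjusted p = 0.0392). The span of Vom2r7 in the count table overlaps those of Apoe and Apoc2. It runs from the lowest to the highest position of a name with parts on both strands. Whether any of its exons overlap those of Apoe or Apoc2 was not examined. Counting used no strand, so reads could not be told apart by strand where exons overlap. Vom2r7 itself did not pass the filter on low counts.

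The genes closest to each member in their course over the 38 libraries were found by the root mean square difference of centred log2 CPM among 10399 genes. For Apoc2 they were Apoc1 at 0.215, Acads at 0.218 and Agmat at 0.223, beside a spread of Apoc2 itself of 0.419. Apoe followed as the nearest of the other 9 at 0.224. For Apoe they included F12 at 0.142 and Naxd at 0.147, beside a spread of 0.262. For Apoc3 they were Ambp and Mst1 at 0.152 and Proc at 0.156, beside a spread of 0.289. For Apoa4 the nearest gene, Phtf1, was at 0.321 beside a spread of 0.478, and Apoc3, the nearest of the other 9, at 0.379. For Apoa1, Apob and Mttp the nearest of the other 9 genes, at 0.258, 0.27 and 0.167, were farther off than the genes' own spreads of 0.23, 0.203 and 0.161.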

How the data were processed

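RNA-seq of 38 rat livers was used. The deposited counts of read pairs per gene were made by the authors with featureCounts 2.0.6 without a strand option, on an rn6 RefSeq annotation per the file headers. The build mRatBN7.2 appears, with STAR and RSEM, in the submitters' processing notes, so the sources differ on the build, and printed gene positions are the rn6 ones. The TPM values were deposited by the authors, and were recomputed here from the counts and lengths to within 0.0495% over 31011 shared genes. No column was without a sample (0).

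Counts were filtered with filterByExpr (minimum count 10, total 15), scaled by TMM and fitted in edgeR 4.0.16 (R 4.3.3) by the quasi-likelihood test over all 8 groups, with 17 comparisons and Benjamini-Hochberg adjustment over 14786 genes within each. All adjusted p-values are from that fit unless another tool is named, and a call is an adjusted p under 0.05. Errors after ± are standard errors for log2 fold changes and SDs for CPM. DESeq2 1.42.0 and limma 3.58.1 on log2(TPM + 1) were alternatives, with other scalings, filters, samples and a replicate block.

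Groups came from the treatment labels, and replicates are biological ones per the series' design text. No molecular identifiers were given, so read pairs are not independent molecules. All 10 genes are reported. Overlap of libraries between groups is described for them without the share over all genes. From the lists, the text takes the tested genes called with the largest change, up to 4 per list with at least 2 CPM, and the likeness rule names the 3 closest genes. Members and lists were chosen with earlier results of these data known. Genes of the clusters' surroundings are those within 100 kb. Some genes that these rules name are not reported here.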

Additional observations from a re-analysis of the deposited data

Results flagged for a closer look

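Of 80 sets of 1 gene in 1 group, 4 held a library far from the others by Dixon's test, which chance gives in about 1 of 20 sets. Apoa1 in LPS 2 was at 1016 CPM, below the other 4 LPS libraries at 1577 to 1659 CPM. Apoa2 in control 3 was at 269 CPM, below the other control libraries at 460 to 498 CPM. Apoa2 in EF_RD 3 was at 434 CPM, below 592 to 624 CPM in the rest of its group. Lcat in EF 5 was at 848 CPM, above the other EF libraries at 511 to 585 CPM. Without control 3 the fall of Apoa2 after LPS against control was called (-0.64, adjusted p = 0.0201), as was the rise of Apoa1 without LPS 2 (0.34, adjusted p = 0.0281).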

How the results depend on the processing

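Of 9 called results, 3 were kept under every alternative and omission tried: the fall of Apoc2 against control, and those of Apoa4 and Apoc3 with EF and PF. None of the 9 called results reversed (0), while some values that were not called changed sign with total counts, as given above for Mttp and Apoc3. Leaving out 1 library at a time gave 2 to 5 of the 10 genes called against control (5 without LPS 2), 3 to 6 with EF and PF, and 0 to 2 with EF and RD. Limma on log2(TPM + 1) without a filter called 3 with EF and PF, and DESeq2 called 1 in LPS_EF against LPS, Apoa2. The labels do not say that replicate numbers pair the samples, and in no comparison with 3 or more pairs were all correlations of same-numbered deviations over 0.1. They ran from -0.247 to 0.0605 in the 4 comparisons with LPS, and reached 0.453 in EF_RD against EF, 0.253 in LPS_EF_RD against LPS and, with 2 pairs only, 0.164 and 0.197 in EF_RD against control. With a replicate block, which the tests above do not have, 1 gene was called with EF (Apoa4, -0.63, adjusted p = 0.0119) and 2 with EF and RD, Apoe (-0.43, adjusted p = 0.0344) beside Apoc2. Apoe against control was lost in limma without a filter (adjusted p = 0.193), and Apoa4 against control was kept in 3 of 11 settings. With TPM in place of CPM, the difference of mean log2 levels between LPS and control was -0.11 for Apoa5, -0.11 for Lcat and 0.02 for Mttp. Over all genes, calls against control went from 5435 to 3565 with the block, and with only the groups compared in the fit from 4310 to 2127 with EF and from 3470 to 1692 with EF and RD. In the other comparisons the calls ranged over the alternatives from 35 to 265 for EF (136 as reported), 46 to 239 for EF_PF (92), 16 to 409 for EF_RD (225), 3 to 90 for LPS_EF against LPS (16), 4 to 30 for LPS_EF_PF (6) and 1 to 16 for LPS_EF_RD (2), and likewise 1 to 138 for EF_PF against EF (24), 0 to 221 for EF_RD against EF (107), 1 to 11 for LPS_EF_PF against LPS_EF (1) and 0 to 2 for LPS_EF_RD against LPS_EF (0). For the interactions they ranged from 0 to 29 for EF (16), 0 to 32 for EF and PF (12) and 0 to 42 for EF and RD (19). Leaving out control 5, LPS 3 and EF_RD 1 together, chosen after seeing the data, kept the counts at 3 against control and 1 with EF and RD.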
